A study of Felis catus with 15 samples.

Results

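Smooth muscle contractile genes were followed in epididymis tissue of the domestic cat (Felis catus), taken from the corpus, its middle region. The epididymis is a long coiled duct where sperm from the testis mature and are stored. The 10 genes were chosen by symbol, 10 of the 38995 genes counted, as ACTA2, ACTG2, MYH11, DES, CNN1, TAGLN, SMTN, LMOD1, CASQ2 and MYOCD. The series asked how extracellular vesicles (EVs), small membrane particles released by cells, from the caput (the first stretch of the duct) act on corpus explants. RNA-seq was made from 5 libraries of fresh tissue, 5 of explants kept in culture and 5 of explants kept in culture with these vesicles (culture+EVs). All 3 groups are whole corpus tissue without any genotype, strain or age in the labels. The labels also mark fresh samples D0 and cultured samples D3 without saying what these codes stand for. Libraries are named by group and the replicate number in their label, as in "culture 2". Whether replicates are separate animals is not given, and each p-value then reflects only how far these samples scatter, which may be technical. The RNA of smooth muscle is read in a mixture of epithelium, stroma and vessels, and in such bulk tissue fewer cells of a type and less RNA per cell cannot be told apart.

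The epididymal tubule is wrapped in a muscular coat whose contractions move sperm along the duct, and blood vessel walls hold smooth muscle too. A smooth muscle cell shortens when a rise in calcium activates myosin light chain kinase, and smooth muscle myosin then pulls on filaments of smooth muscle actin. Calponin, transgelin, smoothelin and leiomodin bind or build those actin filaments, and desmin filaments tie them together. Many of these genes carry CArG boxes, to which serum response factor (SRF) binds with its muscle-restricted partner myocardin or with the myocardin-related factors MRTFA and MRTFB. Smooth muscle cells taken into culture are known to shift from this contractile state toward a synthetic one with less contractile protein and more matrix.

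Total counts ranged from 17308832 to 27420218 per library, and all 10 genes passed the filter on low counts. CASQ2 passed it only through its cultured libraries, since fresh ones held 2 to 7 counts each. Levels are CPM, the count of a gene relative to the scaled total of its library. They are compared between libraries within a gene and not between genes, because no transcript lengths were used. Culture 3 stood apart: 13 mitochondrially encoded genes held 0.179% of its counts, against 6.23% to 7.48% in the other culture libraries. Together the 10 genes took 0.0652% to 0.175% of counts in the fresh libraries, 0.125% to 0.451% in those of culture and 0.0668% to 0.437% in those of culture+EVs. The means were 0.115% ± 0.0547 (SD, n = 5), 0.225% ± 0.132 (n = 5) and 0.196% ± 0.142 (n = 5), so that the spread within each cultured group was more than the gap between them. Of 31 striated muscle genes, 14 had enough counts to be tested. Fast skeletal troponins differed, with TNNT3 at 0 to 2 counts and TNNI2 at 27.7 to 72.3 CPM in fresh tissue. Of the skeletal muscle regulators, MYOG and MYF5 had 0 counts in every library. MYOD1, too low to be tested, had 0 to 108 counts in fresh libraries (median 0.263 CPM, highest 4.33 CPM) and 0 in all cultured ones. CKM, muscle creatine kinase, ran from 5.41 to 33.4 CPM in fresh tissue. The highest values of MYOD1 and CKM both came from fresh 2.

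Set against fresh tissue, 4 of the 10 genes rose in culture, none was called lower and 6 did not pass the test. TAGLN, SMTN, ACTG2 and CASQ2 rose by 4.66-fold, 3.96-fold, 4.08-fold and 6.52-fold. Of all 18038 tested genes, 54.3% were called in this comparison, 28.7% higher and 25.6% lower, so 4 called of 10 is below the share called over all genes. The median log2 fold change was 0.64 over the 10 genes and 0.04 over all tested genes. A gene was called at an adjusted p under 0.05 by edgeR's quasi-likelihood test with Benjamini-Hochberg adjustment over all tested genes, and each adjusted p below is from that test unless another is named. That fit has no term for the replicate number, so differences that equal numbers share remain in its standard errors. Counts of called genes with such a term are given at the end.

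**Figure D1:**
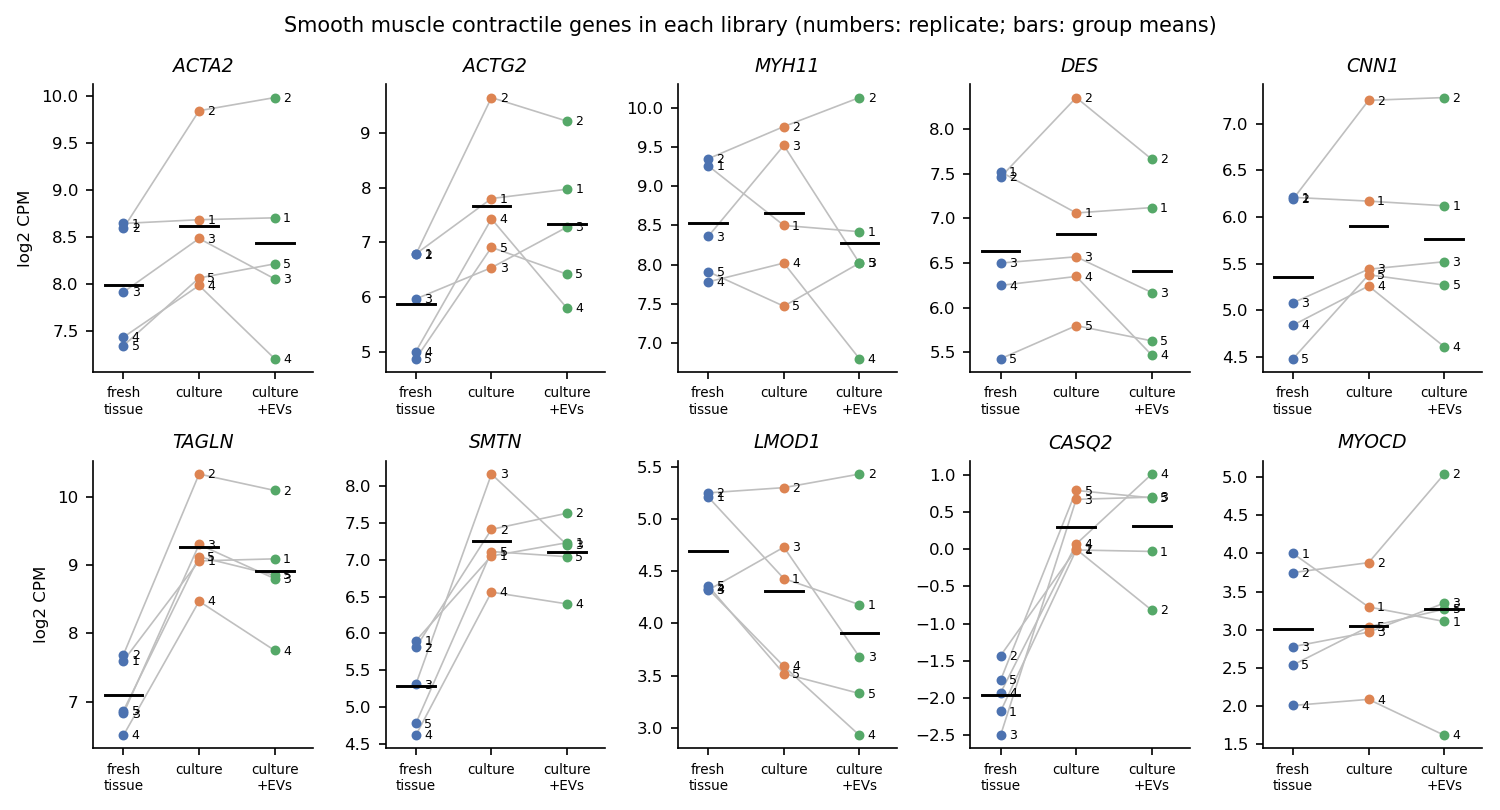
Log2 CPM of each of the 10 genes in each library (points, numbered by replicate, grey lines joining equal numbers; black bars, group means, 5 libraries a group). TAGLN, SMTN and CASQ2 lie higher in all 5 culture libraries than in any fresh library, while ACTA2, MYH11, DES, CNN1, LMOD1 and MYOCD overlap across the 3 groups and libraries numbered 2 are mostly at the top.

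TAGLN encodes transgelin, also called SM22, an actin-binding protein of smooth muscle. Its level in fresh libraries 1 to 5 was 194, 207, 114, 91.1 and 116 CPM. In culture libraries 1 to 5 it was 534, 1289.7, 632, 355 and 557 CPM. Each culture library lay above each fresh library, with culture 2 far above the others. TAGLN rose by a log2 fold change of 2.22 ± 0.42 (SE, 95% interval 1.33 to 3.11) with an adjusted p of 0.000371.

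SMTN encodes smoothelin, an actin-associated protein known from contractile smooth muscle. Fresh libraries 1 to 5 held 59.6, 55.9, 39.6, 24.4 and 27.3 CPM, and culture libraries 1 to 5 held 132, 170, 286, 94.3 and 138 CPM. The groups did not overlap, and the highest value came from culture 3, not culture 2. SMTN rose by 1.99 ± 0.33 on the log2 scale (95% interval 1.29 to 2.68, adjusted p = 0.000111), and by 1.70 when culture 3 was left out (adjusted p = 0.000186).

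CASQ2 encodes calsequestrin 2, a calcium-binding protein of the sarcoplasmic reticulum, best known from heart and also made in smooth muscle. It was read from few counts: 3, 7, 2, 3 and 4 in fresh libraries 1 to 5. In culture libraries 1 to 5 it had 23, 20, 29, 24 and 31 counts. The groups did not overlap, but fresh tissue was near the lower limit of what these depths detect. Because CASQ2 passed the filter through its cultured libraries only, a call lower in culture was hardly possible. CASQ2 rose by 2.70 ± 0.45 on the log2 scale (95% interval 1.74 to 3.66, adjusted p = 0.000132). Its striated muscle relative CASQ1, which belongs to the calcium handling list below, rose too, by 4.27 ± 0.73 (adjusted p = 0.000169), from 0 to 40 counts per fresh library to 150 to 576 per culture library.

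ACTG2 encodes gamma smooth muscle actin, the actin typical of visceral muscle. Fresh libraries 1 to 5 held 110.4, 109.8, 62.8, 32.2 and 29.3 CPM. Culture libraries 1 to 5 held 222, 797, 93.0, 172 and 120.4 CPM. Each culture library exceeded the fresh library of its own number, but the groups overlapped, because culture 3 lay below fresh 1 and fresh 2. ACTG2 rose by 2.03 ± 0.70 on the log2 scale (95% interval 0.54 to 3.52), with an adjusted p of 0.0232. This call rested on single libraries: without culture 2 the log2 fold change was 1.15 (adjusted p = 0.123), without fresh 4 it was 1.85 (adjusted p = 0.0545) and without fresh 5 it was 1.84 (adjusted p = 0.0554).

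For TAGLN, SMTN and CASQ2, 3 of the 10 genes, the fresh and culture libraries did not overlap, higher in culture in each case. For CASQ2 this has little weight, since it passed the filter only through cultured libraries. Of all tested genes, 40.5% had no overlap, 20.2% with culture higher. With all libraries numbered 2 left out, the same 4 genes were called and the median over the 10 genes was 0.35. The share of all genes called in that fit is not given here, so this count is no result about the 10 genes.

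The other 6 genes hold the core of the contractile unit and its regulator, and none was called without the replicate number in the fit. ACTA2, alpha smooth muscle actin, is the usual marker of smooth muscle and of myofibroblasts. It stood at 399.8, 385, 239.8, 172 and 162 CPM in fresh libraries 1 to 5 and at 411, 917, 356, 253 and 267 CPM in culture. All 5 culture libraries exceeded the fresh library of the same number, by a little in number 1 and by most in number 2, and the groups overlapped. The log2 fold change was 0.70 ± 0.48 (95% interval -0.33 to 1.72, adjusted p = 0.235). Without culture 2 it was 0.25.

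CNN1 encodes calponin 1, an actin-binding protein that restrains myosin. It ran at 74.2, 72.8, 33.8, 28.6 and 22.2 CPM in fresh libraries 1 to 5 and at 71.9, 152, 43.3, 38.3 and 41.5 CPM in culture, with wide overlap. Its log2 fold change was 0.58 ± 0.52 (95% interval -0.52 to 1.69, adjusted p = 0.359), or 0.08 without culture 2. With the replicate number as a block, ACTA2 (0.60, adjusted p = 0.0281) and CNN1 (0.52, adjusted p = 0.0316) were called higher. That block rests on numbers that pair each of these groups with culture+EVs, while number 3 of fresh tissue and culture correlated at 0.03.

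MYH11 encodes the smooth muscle myosin heavy chain, the motor of contraction. Fresh libraries 1 to 5 held 615, 652, 328, 219 and 241 CPM, and culture libraries 1 to 5 held 363, 866, 736, 259 and 178 CPM. Culture 3 was the second highest here while it was the lowest for ACTG2, and the groups overlapped over most of their range. The log2 fold change was 0.23 ± 0.57 (95% interval -0.98 to 1.43, adjusted p = 0.758).

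DES encodes desmin, the intermediate filament of muscle. It read 183, 176, 90.1, 76.1 and 42.9 CPM in fresh libraries 1 to 5 and 133, 327, 94.9, 81.4 and 55.8 CPM in culture. Only culture 2 lay outside the range of the fresh libraries. Its log2 fold change was 0.28 ± 0.53 (95% interval -0.85 to 1.42, adjusted p = 0.675), and it turned to -0.31 without culture 2.

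LMOD1 encodes leiomodin 1, which starts new actin filaments in smooth muscle. Its fresh libraries 1 to 5 held 37.0, 37.9, 19.9, 20.0 and 20.5 CPM. Its culture libraries 1 to 5 held 21.5, 39.2, 26.5, 11.9 and 11.4 CPM. Culture 4 and culture 5 lay below all fresh libraries, and culture 2 lay above them. The log2 fold change was -0.29 ± 0.45 (95% interval -1.25 to 0.66, adjusted p = 0.604). Its gene overlaps an RNA gene without protein, LOC109495696, in the RefSeq table, with a mean of 53.5 counts per library against 506 for LMOD1.

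MYOCD encodes myocardin, the partner of SRF that switches on this set of genes. It held 15.9, 13.4, 6.78, 3.93 and 5.72 CPM in fresh libraries 1 to 5, and 9.73, 14.7, 7.73, 4.16 and 8.12 CPM in culture. The culture values all lay within the fresh range. MYOCD thus had a log2 fold change of -0.04 ± 0.54 (95% interval -1.18 to 1.10, adjusted p = 0.953). For these 6 genes the intervals reach from falls of 1.25 to rises of 1.72 on the log2 scale, so changes within these bounds are not excluded.

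**Figure D2:**
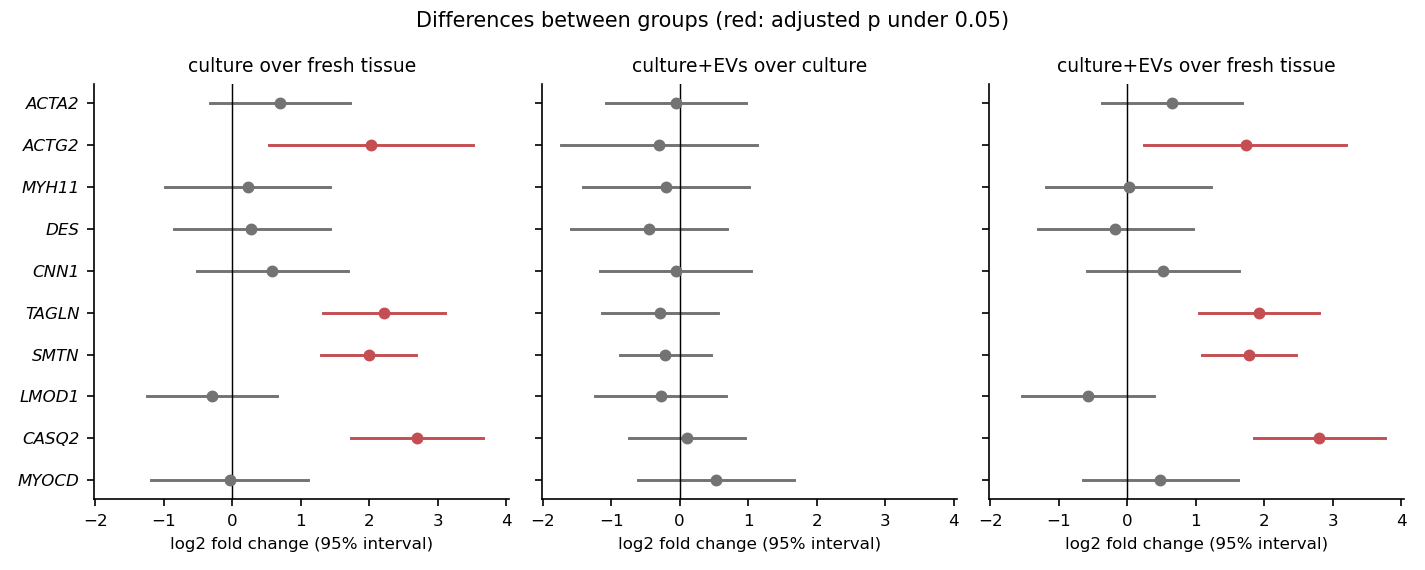
Log2 fold change of each gene with its 95% interval in the 3 comparisons (edgeR's quasi-likelihood fit, 5 libraries a group; red, adjusted p under 0.05). TAGLN, SMTN, CASQ2 and ACTG2 are red against fresh tissue in both cultured groups, and all 10 intervals of culture+EVs over culture include 0.

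The comparison that answers the question of the series, culture+EVs against culture, gave no call among the 10 genes and none among all tested genes (0%). None of the 10 had an unadjusted p under 0.05, against 183 tested genes (1.01%). A test that fits its data gives a share of about 0.05 where nothing differs. The fit was thus cautious here, and the lack of small p-values says little about the vesicles. DESeq2 and limma-voom called 0 of the 10 as well. The log2 fold changes ran from -0.45 ± 0.54 for DES to 0.53 ± 0.54 for MYOCD, with 8 of 10 below 0 and a median of -0.20 (0 over all tested genes). No gene of the 10 separated the groups without overlap, and 0.0832% of all tested genes did.

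In culture+EVs libraries 1 to 5, ACTA2 stood at 417, 1012, 264, 146 and 295 CPM, again highest in number 2. MYH11 stood at 341, 1121, 259, 112 and 259.8 CPM. TAGLN stood at 545, 1089, 445, 215 and 463 CPM. Libraries 1 and 2 of culture+EVs were close to culture libraries 1 and 2 for TAGLN and ACTA2, and number 4 was lower than culture 4 for each of these 3 genes. The intervals for culture+EVs over culture were -1.07 to 0.97 for ACTA2, -1.41 to 1.01 for MYH11 and -1.14 to 0.56 for TAGLN on the log2 scale. The narrowest was that of SMTN, -0.87 to 0.46, around -0.21 ± 0.31. MYOCD had scattered values, 8.56, 32.9, 10.1, 2.99 and 9.58 CPM in culture+EVs libraries 1 to 5, and its log2 fold change turned to -0.20 without culture+EVs 2. CASQ2 held 25, 11, 38, 49 and 27 counts in culture+EVs libraries 1 to 5, with number 2 the lowest of the cultured libraries, and differed from culture by 0.11 ± 0.40. Leaving out culture 2 turned 7 of the 10 log2 fold changes from negative to positive, with ACTG2 moving from -0.30 to 0.59.

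Culture+EVs against fresh tissue shares its fresh libraries with the comparison of culture against fresh tissue, so the values are given side by side and not as a second line of evidence. The same 4 symbols were called higher, 4 of 10 against 52.9% of all tested genes, of which 27.4% were higher. TAGLN was 1.93 ± 0.41 here (adjusted p = 0.00107) beside 2.22 in culture. SMTN, at 150.1, 198, 147, 84.3 and 131 CPM in culture+EVs libraries 1 to 5, was 1.78 ± 0.32 (adjusted p = 0.000283) beside 1.99. CASQ2 was 2.81 ± 0.45 (adjusted p = 9.56e-05) beside 2.70. These 3 genes again showed no overlap with fresh tissue, as did 49.2% of all tested genes, 25.3% with culture+EVs higher. For CASQ2 the limit set by the filter holds here too.

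ACTG2, at 250.3, 594, 155, 55.7 and 85.4 CPM in culture+EVs libraries 1 to 5, was 1.73 ± 0.69 (adjusted p = 0.0476), just inside the threshold. It overlapped fresh tissue in libraries 4 and 5. Its call was lost in 9 of 15 fits that left out 1 library, with a log2 fold change of 0.97 without culture+EVs 2 (adjusted p = 0.22), and under 3 other scalings of the libraries.

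LMOD1 was the gene with the lowest log2 fold change against fresh tissue in this group. It held 18.0, 43.0, 12.7, 7.56 and 9.97 CPM in culture+EVs libraries 1 to 5. All of them but number 2 lay below every fresh library. The log2 fold change was -0.57 ± 0.45 (adjusted p = 0.307). With the replicate number as a block, for which equal numbers deviated together between these groups, it was -0.80 (adjusted p = 0.0113). Without culture+EVs 2 it was -1.18 (adjusted p = 0.0205). The remaining genes were not called, at 0.65 ± 0.48 for ACTA2, 0.52 ± 0.52 for CNN1, 0.48 ± 0.54 for MYOCD, 0.03 ± 0.57 for MYH11 and -0.17 ± 0.53 for DES. CNN1 stood at 69.6, 155, 45.7, 24.4 and 38.5 CPM and DES at 139, 202, 72, 44.2 and 49.6 CPM in culture+EVs libraries 1 to 5, both with number 2 highest and number 4 lowest.

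The 10 genes varied more between libraries of 1 group than the median gene did. The median SD of their log2 CPM was 0.68 among fresh libraries, 0.75 among those of culture and 0.98 among those of culture+EVs. Over the 5934 genes with a mean log2 CPM of 5 or more, the median SD was 0.16, 0.41 and 0.16, and over all 18038 tested genes it was 0.29, 0.54 and 0.29. CASQ2, MYOCD and LMOD1 have means below 5. All 10 genes lay above the median of those 5934 genes in fresh tissue and in culture+EVs, and 9 did in culture. The highest library was 2.46 times the lowest for ACTA2 among fresh libraries, 3.62 times for culture and 6.91 times for culture+EVs. For MYOCD these spans were 4.05, 3.53 and 11.0 times.

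They also varied together. After subtraction of group means, the 45 pairs of genes had a median Pearson r of 0.85 over the 15 libraries, which share depth, scaling and tissue source, so this is a description. ACTA2 and CNN1 were the closest pair, at 0.98. ACTA2 had a median r of 0.93 with the other genes, TAGLN 0.90 and LMOD1 0.89. SMTN followed the others less, at 0.69, and CASQ2 ran the other way, at -0.59. The value for CASQ2 is uncertain, because it was read from few counts, 2 to 7 in each fresh library. Without culture 3 the median over the 45 pairs was 0.91.

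**Figure D3:**
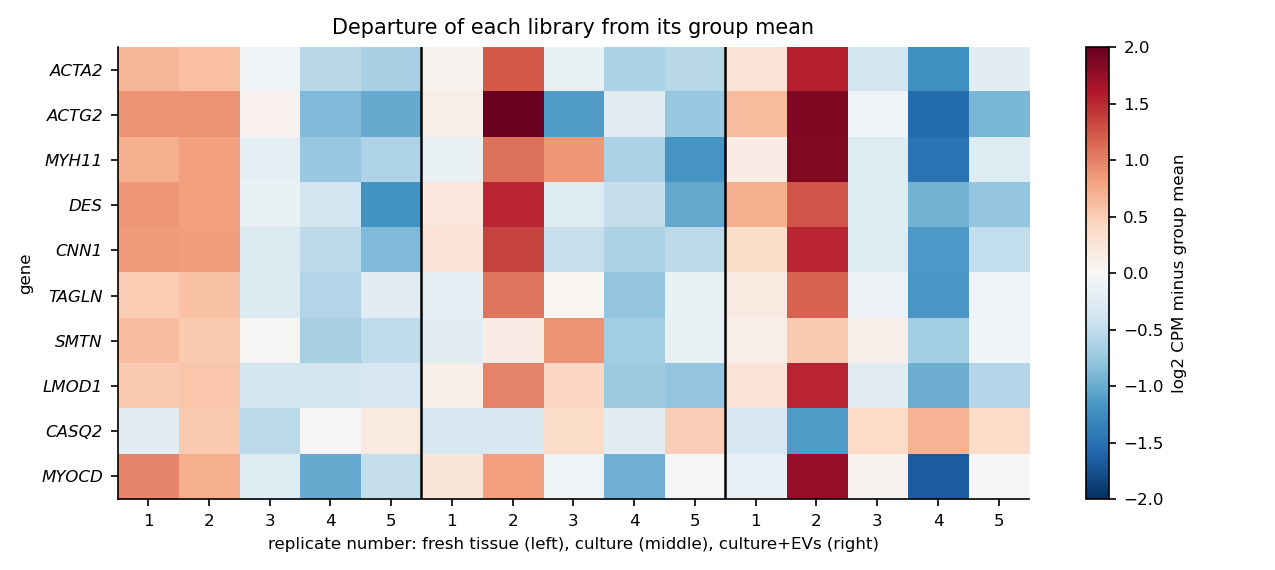
Log2 CPM of each gene minus its group mean in each of the 15 libraries (red above, blue below the mean; groups divided by black lines, columns numbered by replicate). Libraries numbered 2 are red and those numbered 4 are blue in almost every row, and fresh 1 is red as well. CASQ2, read from few counts, breaks the pattern with its lowest cultured value in culture+EVs 2.

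The shared pattern followed the replicate number. Averaged over the 10 genes, the libraries numbered 2 lay above their group means by 0.69 (fresh tissue), 0.99 (culture) and 1.19 (culture+EVs) on the log2 scale. Those numbered 4 lay below them, at -0.57, -0.60 and -1.01. Number 1 stood at 0.64 in fresh tissue but at 0.02 in culture and 0.22 in culture+EVs.

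Fibroblast genes moved with this pattern. The summed level of 18 fibroblast and myofibroblast markers was 17286 CPM in culture 2 and 12555 CPM in culture+EVs 2, against 1689 and 1352 CPM in number 4 of the same groups. In fresh tissue it was highest, at 2802 CPM, in number 2 too, and lowest, at 710.1 CPM, in number 4. Across libraries, 30 other genes of the contractile apparatus had a median r of 0.84 with the mean of the 10 genes. Fibroblast markers had 0.81, pericyte markers 0.70, epithelial markers -0.54 and all tested genes 0. What part fibroblasts and the other cell types have in the differences above was not tested. Defining markers were present in each group: DCN of fibroblasts ran from 264 to 917 CPM in fresh tissue and from 357 to 2547 in culture, PDGFRA from 20.3 to 60.5 and from 38.5 to 268, and the epithelial EPCAM from 467 to 634 and from 357 to 515. RGS5, a pericyte marker, ran from 43.0 to 83.5 CPM in fresh tissue and from 17 to 111 in culture, with a log2 fold change of -0.15 ± 0.47 (adjusted p = 0.802). In culture+EVs DCN ran from 258 to 1604 CPM, PDGFRA from 41.9 to 273, EPCAM from 289 to 577 and RGS5 from 12.4 to 88.3.

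The genes that varied most like the mean of the 10, among 12358 candidates, were PGM5 (r = 0.963), SYNM (0.957), MRGPRF (0.956), EFEMP2 (0.955), IGFBP4 (0.954), CSRP1 (0.952), FGF11 (0.949), PNCK (0.947), RGMA (0.947) and TMEM200B (0.946). Likeness was Pearson's r over 15 libraries with group means subtracted, so it says nothing of differences between groups. Those differed widely: IGFBP4, which binds insulin-like growth factors, rose in culture by 3.66 ± 0.51 (adjusted p = 2.47e-05), while SYNM, the intermediate filament protein synemin, stood at 0.35 ± 0.53 (adjusted p = 0.603) and PGM5, an adhesion protein of muscle, at -0.43 ± 0.49 (adjusted p = 0.476).

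Because the 10 genes moved together between libraries, their levels were also set against ACTA2 within each library, which takes out the amount of muscle RNA as far as ACTA2 tracks it. Such a ratio shows unequal change and not which of the pair changed. On the log2 scale, TAGLN over ACTA2 was -1.04, -0.90, -1.08, -0.92 and -0.48 in fresh libraries 1 to 5. It was 0.38, 0.49, 0.83, 0.49 and 1.06 in culture and 0.39, 0.11, 0.75, 0.56 and 0.65 in culture+EVs. The SD in each group was 0.24 to 0.28, well below the SD of TAGLN itself, and all cultured libraries lay above all fresh ones. SMTN over ACTA2 went from a mean of -2.70 ± 0.11 (SD, n = 5) in the fresh libraries to -1.35 ± 0.79 in the culture libraries and -1.33 ± 0.64 in those of culture+EVs, again without overlap.

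LMOD1 went the other way against ACTA2. Its log2 ratio was -3.43, -3.34, -3.58, -3.10 and -2.98 in fresh libraries 1 to 5, -4.25, -4.54, -3.74, -4.40 and -4.54 in culture, and -4.53, -4.55, -4.37, -4.26 and -4.88 in culture+EVs. All 10 cultured libraries lay below all 5 fresh ones. Of the 9 genes set against ACTA2, TAGLN and SMTN were higher and LMOD1 lower in culture without overlap, where 21.2% of all genes had no overlap. In culture+EVs against fresh tissue ACTG2 joined the higher and MYH11 the lower, with 15% of all genes without overlap. Without the ratio these shares of all genes were 40.5% and 49.2%. Division by ACTA2 adds its spread to genes that do not follow it, while most of the 9 do. The shares of ratios are thus no like baseline for the 9 genes. MYH11 over ACTA2 was 0.55 ± 0.16 in the fresh libraries, 0.05 ± 0.61 in the culture libraries and -0.15 ± 0.21 in those of culture+EVs. CNN1 kept close to ACTA2 in all 3 groups, at -2.62 ± 0.22, -2.71 ± 0.20 and -2.67 ± 0.16. Between culture+EVs and culture, 0 of 9 ratios and 0% of all genes had no overlap.

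**Figure D4:**
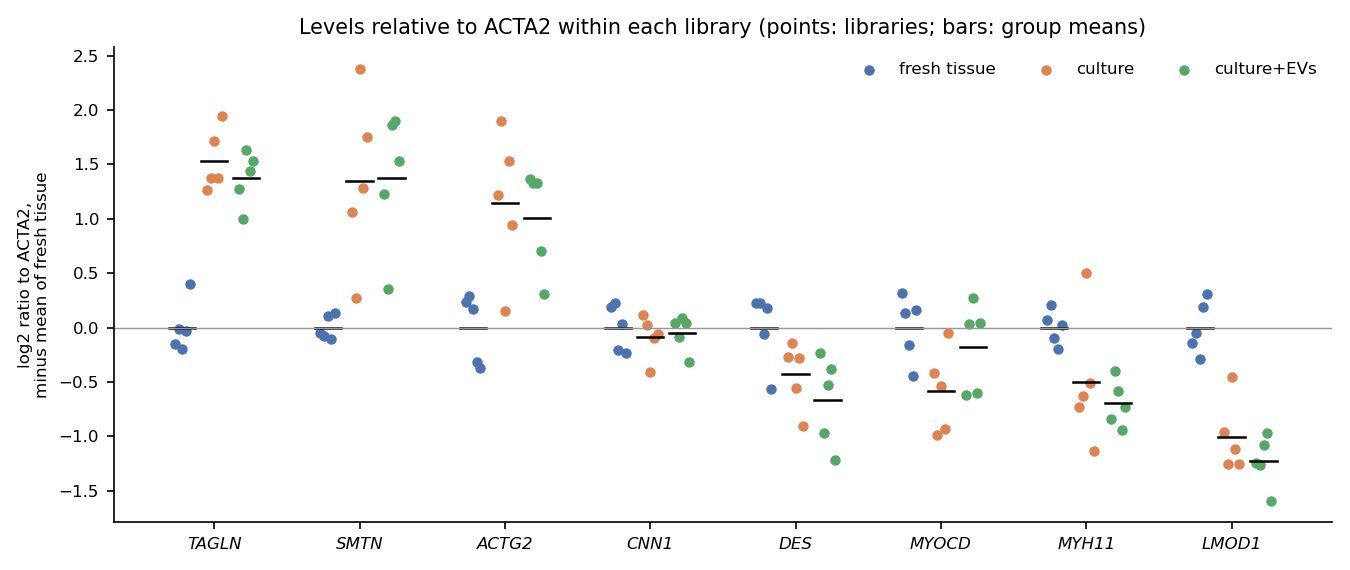
Log2 ratio of 8 genes to ACTA2 within each library, minus the mean ratio of fresh tissue (points, libraries; black bars, means; 5 libraries a group). TAGLN and SMTN lie above and LMOD1 below the fresh libraries in all 10 cultured libraries, and CNN1 stays around 0; CASQ2 is left out because of its low counts.

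Other genes of contraction were called in both directions in culture against fresh tissue, and their counts are to be read against the 54.3% called over all tested genes. Of 30 tested genes of the contractile apparatus outside the 10, 12 were called higher and 3 lower, close to that share, with a median log2 fold change of 0.55. MYL9, the regulatory light chain, and MYLK, the kinase that activates it, did not pass the test, at 0.28 ± 0.46 (adjusted p = 0.631) and 0.13 ± 0.42 (adjusted p = 0.805). CALD1, caldesmon, rose by 1.21 ± 0.38 (adjusted p = 0.0142), and TPM2, a muscle tropomyosin, by 1.59 ± 0.51 (adjusted p = 0.0163), though TPM2 was not called without culture 3 (1.23, adjusted p = 0.0504). Of the called genes with the smallest p, higher were SGCA, alpha-sarcoglycan, at 1.90 ± 0.23, FILIP1L at 2.82 ± 0.37 and ITGA5, the fibronectin-binding integrin subunit, at 3.55 ± 0.51. Lower were SGCD, delta-sarcoglycan, at -1.66 ± 0.33, and PPP1R12B, a myosin phosphatase subunit, at -1.43 ± 0.29. Alpha- and delta-sarcoglycan, members of the complex that anchors muscle membranes, thus moved in opposite directions.

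Most non-muscle relatives of these proteins rose. Of 18 tested paralogs such as cytoplasmic actins and non-muscle myosins, 16 were called higher and 0 lower, with a median of 1.26, where 28.7% of all tested genes were higher. SMTNL2 (0.65, adjusted p = 0.264) and MYH14, a non-muscle myosin (0.14, adjusted p = 0.791), did not pass. TPM4, a non-muscle tropomyosin, rose by 3.92 ± 0.20 (adjusted p = 4.1e-09) and CNN2, the widely expressed calponin, by 3.08 ± 0.19 (adjusted p = 1.05e-08). The cytoplasmic actins ACTB and ACTG1 rose by 0.99 ± 0.18 and 1.69 ± 0.18, and the non-muscle myosins MYH9 and MYH10 by 2.62 ± 0.43 and 1.46 ± 0.33. Without culture 3, MYH9 rose by 1.79 and MYH14 was called lower, at -0.71 (adjusted p = 0.00271). These genes are also made by epithelium and fibroblasts. CNN2 over CNN1, on the log2 scale, was -1.01 ± 0.62 in fresh tissue and 1.52 ± 1.10 in culture (SD, n = 5 each).

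Among 31 tested regulators of smooth muscle genes, 20 were called higher and 4 lower, with a median of 1.16. SRF itself was at 0.27 ± 0.22 (adjusted p = 0.314), and was called, at 0.55 (adjusted p = 0.0142), without fresh 4. MRTFA rose by 0.96 ± 0.22 (adjusted p = 0.00147), and MRTFB did not pass the test, at -0.18 ± 0.11 (adjusted p = 0.19). KLF4, known to oppose myocardin in smooth muscle, fell by 1.30 on the log2 scale (adjusted p = 0.0277), but was not called when culture 1, 2 or 3 or fresh 4 was left out, with -0.40 in the last case (adjusted p = 0.203). SMAD3, which carries TGF-beta signals, rose by 2.86 ± 0.20 and the Notch ligand JAG1 by 2.24 ± 0.21, and both are also made outside muscle. TEAD3 rose by 1.00 ± 0.11, while TBX2 was at -0.81 ± 0.23, MEF2A at -0.90 ± 0.27 and ELK1 at -0.41 ± 0.13, all called. Of 11 SRF-linked immediate early genes, 1 was called higher and 4 lower, with a median of -0.51. Fresh tissue varied most in these genes, with a summed level of 734 to 4972 CPM against 512 to 770 in culture.

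Calcium handling genes were called in both directions. Of 28 tested, 8 were higher and 11 lower, with a median of -0.07. Higher were ANO1, a calcium-gated chloride channel, at 1.31 ± 0.20, and CASQ1. Lower were ORAI1, the pore of store-operated calcium entry, at -2.57 ± 0.21, SRL, sarcalumenin, at -2.09 ± 0.22, and SLN, sarcolipin, at -3.53 ± 0.49. PLN, phospholamban, which like SLN restrains the calcium pump of the sarcoplasmic reticulum, was at -1.57 ± 0.59 (adjusted p = 0.0344), and its call was lost in 6 of 15 fits that left out 1 library, with -1.33 (adjusted p = 0.0668) without culture 3 and -1.26 (adjusted p = 0.0982) without fresh 5.

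Of 20 tested receptors and cyclic nucleotide genes, 4 were higher and 3 lower, with a median of 0.28. Higher were the endothelin receptor EDNRB at 3.85 ± 0.74 and the serotonin receptor HTR2B at 3.13 ± 0.66, and lower the natriuretic peptide receptor NPR1 at -1.69 ± 0.20.

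**Figure D5:**
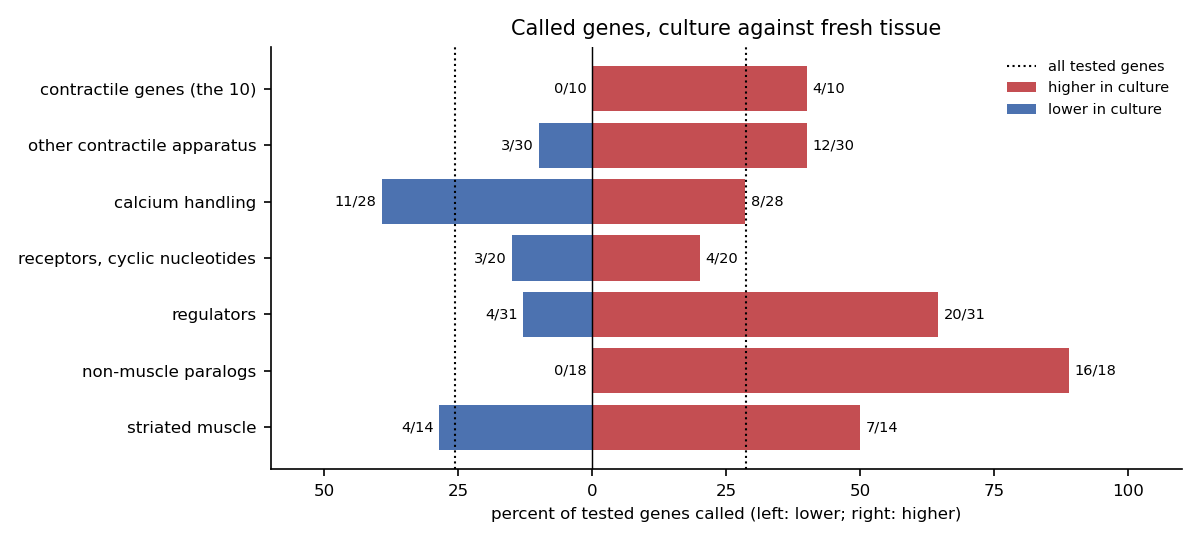
Percent of tested genes called higher (right, red) and lower (left, blue) in culture against fresh tissue, for the 10 contractile genes and 6 related gene lists, with the number called over the number tested. Dotted lines mark all tested genes, 28.7% higher and 25.6% lower; 16 of 18 non-muscle paralogs are higher, and calcium handling has 11 of 28 lower.

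Striated muscle genes were called in both directions. Of 14 tested, 7 were higher and 4 lower, with a median of 0.69. ACTC1 and ACTA1, the cardiac and skeletal alpha-actins, which smooth muscle can also make, were higher in culture. ACTC1 had 7 to 23 counts per fresh library and 84 to 174 per culture library (3.06 ± 0.42, adjusted p = 2e-05). ACTA1 had 0 to 3 and 13 to 59 counts (adjusted p = 0.000305). It passed the filter on low counts only through cultured libraries, so a call lower in culture was hardly possible. How reads matching several of the near-identical actin sequences were counted is not given, so values of ACTA1, ACTA2, ACTC1 and ACTG2 are uncertain to that extent. TTN, titin, had 36 to 174 counts in fresh libraries and 0 to 7 in culture (adjusted p = 0.000129). It passed the filter only through fresh libraries, so a call higher in culture was hardly possible. TNNT2, a troponin, fell by 2.88 on the log2 scale (adjusted p = 0.00017), and by 3.55 without culture 3. CKM fell by 1.89 (adjusted p = 0.0256) and was not called when culture 1, culture 3 or fresh 2 was left out, with adjusted p of 0.0546, 0.0526 and 0.107.

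Markers of other cell types and states were called in culture as well, beside 54.3% of all tested genes (28.7% higher, 25.6% lower). Counts for fibroblast, epithelial, endothelial, leukocyte and nerve markers lie near or below that share and are no result about those lists. Of 13 tested genes of synthetic smooth muscle, 10 were higher and 1 lower (median 2.1). SPP1, osteopontin, rose by 7.22 ± 0.41 and THBS1, thrombospondin 1, by 3.14 ± 0.43, and both are made by other cells too. Of 18 fibroblast markers, 9 were higher and 1 lower (median 1.63), with PDGFRA at 1.38 ± 0.59 (adjusted p = 0.057) and DCN at 0.99 ± 0.61 (adjusted p = 0.183). Of 11 pericyte markers, 8 were higher and 2 lower (median 1.78). All 10 basal and myoepithelial markers were higher (median 3.63). Myoepithelial cells in general also make ACTA2, CNN1 and TAGLN. Across libraries, after subtraction of group means, the basal and myoepithelial markers had a median r of -0.21 with the mean of the 10 genes. KRT5, of basal cells, ran from 138 to 333 CPM in fresh tissue and from 1187 to 4198 in culture. Of 15 endothelial markers, 7 were higher and 0 lower (median 1.02), 5 of them without culture 3. Of 14 epithelial markers 5 were higher and 3 lower (median -0.01), of 12 leukocyte markers 2 and 3 (median -0.74), and of 8 nerve and Schwann cell markers 1 and 2 (median -0.10). What part these cells have in the levels of the 10 genes was not tested. None of the genes in these lists was called between culture+EVs and culture.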

How the data were processed

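The authors deposited 1 table of raw counts per gene with 38995 genes and 15 libraries (TruSeq Stranded mRNA kit, per the labels). Tools listed in the submitters' processing notes, whose roles are not told, are StringTie 2.1.3b, Bowtie2 2.3.4.1, HISAT2 2.1.0 and Trimmomatic 0.38. No source used here gives the genome build, counting program, strand setting or treatment of reads matching several genes, so overlapping genes and near-identical paralogs may share reads. All 38995 NCBI gene identifiers matched a RefSeq gene table (assembly F.catus_Fca126_mat1.0), used for names and overlaps. No coordinates are given, since the build of the counts is not named.

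Genes were filtered with filterByExpr (minimum count 10, minimum total 15), which left 18038. Libraries were scaled by TMM, the trimmed mean of M values. The model was edgeR 4.0.16 (R 4.3.3; quasi-likelihood, 2-sided, group as the only term, all 15 libraries, 12 residual degrees of freedom, Benjamini-Hochberg adjustment over 18038 genes, threshold 0.05). The standard error is the absolute log2 fold change over the square root of F. CPM values are counts over the effective library size, and log2 CPM uses a prior count of 2. On simulated data with 17765 genes for culture against fresh tissue, 37 of 100 genes changed by 1 on the log2 scale were called. Of 100 changed by 2, 79 were called, and of 17565 unchanged genes 0.0342%. Most genes were thus unchanged there, while 54.3% of tested genes were called in the real comparison. Whether these shares hold for the real libraries was not tested.

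Depth was 17751507 to 24841100 counts for the fresh libraries, 19308190 to 25454399 for culture and 17308832 to 27420218 for culture+EVs. Equal replicate numbers deviated together between culture and culture+EVs (r of 0.18 to 0.60) and between fresh tissue and culture+EVs (0.24 to 0.36), which pairs them by the rule of r over 0.1 in every pair. Between fresh tissue and culture number 3 reached 0.03, so by that rule these were not taken as paired, although both groups pair with culture+EVs. The main fit has group as its only term in every comparison, also where the numbers pair. Differences shared by equal numbers thus remain in its standard errors, and a gene not called there may be called with the block.

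The named genes are the 10, from each other list up to 3 called higher and 3 called lower with the smallest p in culture against fresh tissue, a set of markers given whatever their values, and the 10 genes most correlated with the mean of the 10. Some genes that the rule picks, and 1 gene list, are not reported here. Genes outside this rule (CASQ1 beside CASQ2, TNNI2, KRT5, MYOG, MYF5, MYOD1, SMTNL2 and MYH14) were named after their values were seen. The members and lists were chosen with earlier results of these data known. Alternatives were other scalings, filters, DESeq2 1.42.0, voom from limma 3.58.1, a replicate block and leaving out libraries.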

Additional observations from a re-analysis of the deposited data

Results flagged for a closer look

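The share of counts held by the 10 contractile genes was 0.4513% in culture 2, against 0.125% to 0.213% in the other 4 culture libraries. The gap between culture 2 and the nearest of the others exceeded Dixon's 95% critical value for 5 samples (0.71), which chance exceeds in about 1 of 20 groups. This was the 1 such case among 33 groups examined. These groups are not independent, because the 10 genes vary together and the share sums their counts. The rate of 1 in 20 cannot be carried over to them, and the 1 case is not taken as more than chance. Culture+EVs 2 held 0.4367%, but its gap did not exceed Dixon's critical value.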

How the results depend on the processing

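Without 1 library, 3 to 4 of the 10 genes were called in culture against fresh tissue and in culture+EVs against fresh tissue. Over all tested genes these fits called 9039 to 11090 in culture against fresh tissue and 8833 to 11658 in culture+EVs against fresh tissue. Between culture+EVs and culture, 0 of the 10 and 0 of all tested genes were called. With the replicate number as a block, 6 were called in culture against fresh tissue, adding ACTA2 (0.60, adjusted p = 0.0281) and CNN1 (0.52, adjusted p = 0.0316), 5 in culture+EVs against fresh tissue, adding LMOD1, and 0 between the cultures. Between fresh tissue and culture, 4 of 5 libraries correlated best with their own number. With the block and without culture 3, chosen after seeing the data, culture against fresh tissue gave 7 called genes, of which 6 were higher and 1 was lower. The cause was not tested. How many of all tested genes these block fits called is not given here, so their counts are no result about the 10 genes. LMOD1 against fresh tissue was also called in culture+EVs by limma-voom (-0.90) and without libraries numbered 2 (-1.01), an alternative chosen after seeing the data.

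Genes near 0 changed sign. In culture against fresh tissue, MYH11 was -0.22 by limma-voom and -0.15 with the block and without culture 3, MYOCD was 0.01 with the block, and DES was -0.10 without libraries numbered 2. In culture+EVs against culture, SMTN was 0.12 by limma-voom and 0.04 with the block and without culture 3. In culture+EVs against fresh tissue, MYH11 was -0.03 with relative log expression scaling, -0.09 with upper-quartile scaling, -0.02 with the filter at 1 CPM in 5 libraries, -0.03 by DESeq2, -0.37 by limma-voom, -0.23 with the block, -0.22 with the block and without culture 3 and -0.53 without libraries numbered 2, where MYOCD was -0.05.

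Leaving out 1 library gave these ranges of log2 fold change. In culture against fresh tissue they were -0.09 to 0.46 for MYH11, -0.31 to 0.53 for DES and -0.29 to 0.25 for MYOCD. In culture+EVs against culture they were -0.66 to 0.41 for ACTA2, -1.04 to 0.59 for ACTG2, -1 to 0.13 for MYH11, -0.87 to 0.15 for DES, -0.65 to 0.45 for CNN1, -0.70 to 0.09 for TAGLN, -0.38 to 0.09 for SMTN, -0.88 to 0.04 for LMOD1, -0.11 to 0.30 for CASQ2 and -0.20 to 0.79 for MYOCD. In culture+EVs against fresh tissue they were -0.77 to 0.26 for MYH11, -0.59 to 0.08 for DES, -0.07 to 0.76 for CNN1 and -0.25 to 0.78 for MYOCD.

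TAGLN and SMTN stayed called and higher against fresh tissue under every alternative run. CASQ2 did too, which has little weight, since it passed the filter only through cultured libraries. ACTG2 in culture+EVs against fresh tissue was not called with relative log expression (1.67, adjusted p = 0.0523), upper-quartile (1.61, adjusted p = 0.0615) or library size scaling (1.69, adjusted p = 0.0524), nor without libraries numbered 2 (1.22, adjusted p = 0.0684). Scalings moved the median of all genes from 0.04 to -0.06 in culture against fresh tissue. CASQ2 is limited by depth, with 2 to 7 counts per fresh library.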
